A study of Mus musculus with 12 samples.

Results

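The transcriptome of unstimulated wild-type mouse neutrophils was described from 3 polyA RNA-seq libraries, out of 12 in a series of 4 groups. The 3 are every library labelled as C57BL/6 wild-type and cultured without CpG-B. The cells were bone marrow neutrophils picked out with anti-Ly6G MicroBeads, then held for 6 h at 37 °C in RPMI free of phenol red. The labels call this condition vehicle in one field and untreated in another. The cells had therefore been out of the animal for the length of the culture, and they stand for bone marrow rather than blood neutrophils. The other groups, with CpG-B or a Rab27a knockout, were not used. No source used here says whether libraries 1, 2 and 3 came from different mice, so the spread between them may be technical.

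Neutrophils are short-lived phagocytes that mature in the bone marrow. During maturation they fill a succession of granules: primary granules with myeloperoxidase and serine proteases at the promyelocyte stage, secondary granules with lactoferrin and cathelicidin at the myelocyte stage, and tertiary granules with gelatinase later. Secretory vesicles, with receptors that are brought to the surface on activation, form last. Much of the granule mRNA is therefore made before the cell is mature, while S100a8 and S100a9, which together form calprotectin, are transcribed abundantly in the mature cell too.

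The start regions of 4 genes are printed here because S100a9, Ngp, S100a8 and Ltf, in that order, had the most reads of all genes (CPM ranks 1 to 4). Each is the 120 bases before the transcript start in the RefSeq table (build GRCm38.p6), written 5′ to 3′ on the gene's strand. Capitals mark TATAAA, the TATA box core, or TTGCNNAA on either strand, a core that C/EBP factors can bind.
S100a8 (chr3:90668951-90669070, + strand): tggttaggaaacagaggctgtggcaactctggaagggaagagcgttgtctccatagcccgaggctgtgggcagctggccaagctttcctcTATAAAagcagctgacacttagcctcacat
S100a9 (chr3:90695722-90695841, - strand): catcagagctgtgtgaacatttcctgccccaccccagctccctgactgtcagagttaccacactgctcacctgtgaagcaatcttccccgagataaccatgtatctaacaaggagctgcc
Ngp (chr9:110419688-110419807, + strand): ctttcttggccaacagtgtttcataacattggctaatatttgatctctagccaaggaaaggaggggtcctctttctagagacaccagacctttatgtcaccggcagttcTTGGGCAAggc
Ltf (chr9:111019172-111019291, + strand): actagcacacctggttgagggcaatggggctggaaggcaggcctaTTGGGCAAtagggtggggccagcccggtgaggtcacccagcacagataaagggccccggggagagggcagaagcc
In S100a8 the TATAAA began 30 bases before the start. In S100a9 neither motif lay in the stretch shown. In Ngp and Ltf the capitals spelled the same letters, and they began 11 and 75 bases before the start.

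These motifs were counted in 300-base windows around the starts of the most abundant genes, from 250 bases before to 50 bases after. Of the 100 genes with the highest level, 83 had a window in the RefSeq table, 102 windows in all. TATAAA on either strand was in 17.6% of these windows. It was in 6.87% of the 9751 windows of genes at 1 TPM or more and in 13.6% of all 32851 windows. TTGCNNAA on either strand was in 16.7%, 8.45% and 10.8% of the same 3 sets. GGGCGG, the GC box, was in 52.9%, 63.0% and 35.7%. CCAAT was in 39.2%, 37.9% and 37.4%, and GAGGAAG, a core for PU.1, in 16.7%, 14.0% and 13.6%. Median GC content was 56.8% in the top 100 windows, 60.7% in the windows of genes at 1 TPM or more and 52.7% in all windows. The genes of these data that had a window, at any level, had 15922 windows. Of those, 8.42% held TATAAA, 9.17% TTGCNNAA, 56.2% GGGCGG, 37.6% CCAAT and 13.6% GAGGAAG, with a median GC content of 59.3%. Against this set, TATAAA and TTGCNNAA were more frequent in the top 100 windows, in 18 and 17 of the 102. GGGCGG and GC content were only slightly lower, and none of these differences was tested. The motifs TTGCNNAA and CCAAT can share letters, some genes have several overlapping windows, and a match is only a match of letters.

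Depth was 11444593, 13075102 and 12580015 estimated read counts in libraries 1, 2 and 3. Levels are given as TPM, a read count divided by the effective length of its transcript and scaled to a sum of 1000000 per library, here summed over the transcripts of a gene. Where length is not corrected for, CPM, the read count scaled to the same sum, are given. At least 1 TPM on average was found for 9382 of 15986 genes (58.7%), and 1612 genes had no read in any library. Across the 9382 genes the libraries correlated at a Spearman rho of 0.984 to 0.989, a description across genes, which are not independent. A check for a library deposited again under another name found none: the chi-square of the counts of each pair over genes, which takes reads as independent, was 14.6 to 29.7 per degree of freedom. In bulk RNA, fewer cells of a type and less RNA per cell cannot be told apart.

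The neutrophil label held against the markers. All 12 mature neutrophil markers were above 100 TPM on average. Their summed level was 354589, 341472 and 378522 TPM in libraries 1, 2 and 3, most of it from S100a9 and S100a8. Ly6g, the target of the selection beads, was at 380, 319 and 372 TPM, and Cxcr2, the chemokine receptor that marks mature neutrophils, at 610, 635 and 888 TPM. Markers of immature neutrophils summed to 36097, 49159 and 36469 TPM, highest in library 2. That sum rested on the secondary granule genes Ngp, Camp, Ltf and Chil3. With TPM rescaled without S100a8 and S100a9, the mature list averaged 48646 TPM and the immature list 60049 TPM. The higher sum of the mature list thus rested on that pair. The promyelocyte markers Mpo, Elane, Prtn3 and Ctsg each averaged between 25.2 and 58.5 TPM, and Gfi1 and Prss57 were at 5.30 and 2.41 TPM.

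Markers of most other lineages were low. Those of T and NK cells summed to 8.39 to 13.02 TPM, of dendritic cells to 1.69 to 3.98 TPM, of stem and progenitor cells to 5.74 to 8.93 TPM, of platelets to 9.84 to 13.2 TPM and of stromal and endothelial cells to 11.5 to 16.5 TPM. B lineage markers summed to 29.6 to 40.5 TPM, led by Cd79b and Cd79a, and eosinophil markers to 57.0 to 75.7 TPM, led by Ear2 at 28.6 TPM. Basophil and mast cell markers were at 20.4 and 17.8 TPM in libraries 1 and 3 and at 38.4 TPM in library 2, with Prss34, a basophil protease, at 8.19, 18.3 and 8.25 TPM. Of the defining genes, Gzma (T and NK cells) and Xcr1 (dendritic cells) had no count in any library, which allows up to 0.262, 0.229 and 0.238 CPM in libraries 1, 2 and 3 (3 counts of the total, counting error only).

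Monocyte and macrophage markers summed to 1147 to 1173 TPM, and Ly6c2, which neutrophils also carry, accounted for 997 ± 23.04 TPM (SD, n = 3) of this. Csf1r, the receptor for the macrophage growth factor, was at 65.8, 75.2 and 68.7 TPM. The complement genes C1qa and C1qb, markers of resident macrophages, averaged 17.5 and 20.3 TPM and were lowest in library 2, at 8.69 and 10.8 TPM. Ccr2 and Cx3cr1, which mark classical and patrolling monocytes, were at 3.93 and 1.61 TPM.

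Erythroid markers were the exception, with a sum of 19537, 18594 and 15943 TPM. Nearly all of it was globin: Hbb-bs at 6504 ± 959 TPM, Hba-a1 at 6013 ± 444, Hba-a2 at 3981 ± 248 and Hbb-bt at 1363 ± 223 (SD, n = 3). The alpha-globin genes Hba-a1 and Hba-a2 are near-identical copies, as are to a lesser degree the beta-globin genes, so the division of reads within each pair is uncertain. Genes of erythroid precursors were far lower, with Alas2, the first enzyme of erythroid heme synthesis, at 60.2 TPM and the erythroid regulator Klf1 at 1.60 TPM. Which cells the globin RNA came from was not tested.

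**Figure D1:**
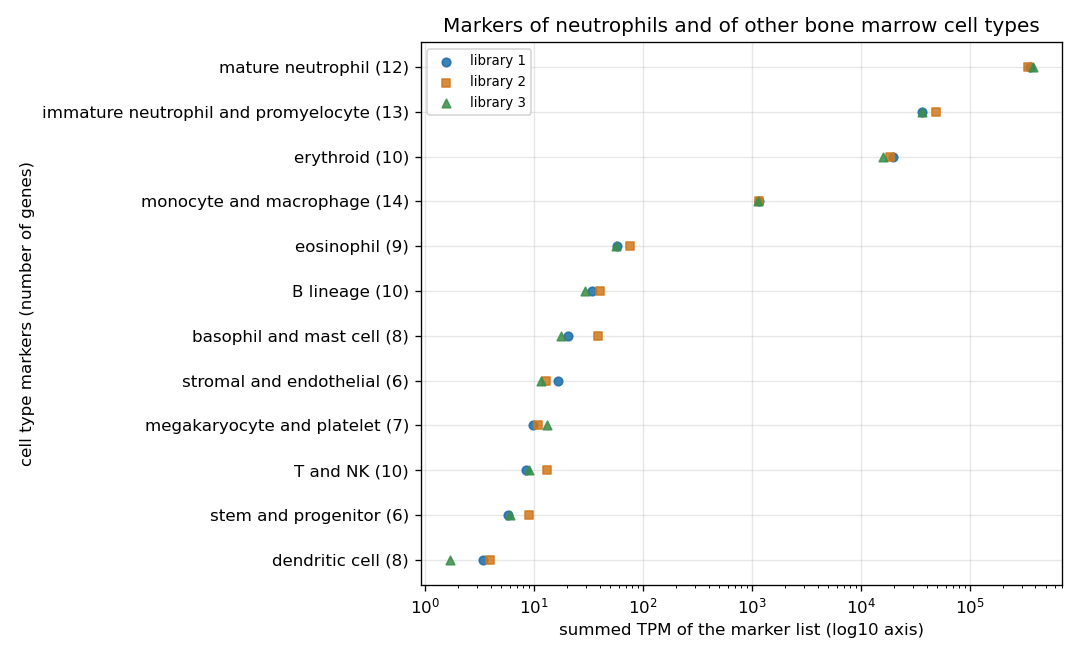
Summed TPM of each marker list (log10 axis) in the 3 unstimulated wild-type libraries, each point a library, with the number of marker genes in brackets. Mature neutrophil markers sum to 341472 TPM or more in every library, mostly from S100a9 and S100a8. Only the immature neutrophil, erythroid and monocyte lists also exceed 1000 TPM.

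A pair of genes supplied 32.5% of all TPM. S100a9 was at 196324, 181792 and 221356 TPM and S100a8 at 123520, 129982 and 123282 TPM in libraries 1, 2 and 3. Their proteins pair as calprotectin, a calcium-binding complex that withholds zinc and manganese from microbes. S100a9 was higher than S100a8 in each library, and together they held 32.0%, 31.2% and 34.5% of TPM. The next gene, Ngp, was at 21948, 29367 and 22792 TPM, well under S100a8 in each library. The other measured S100 genes were S100a11 at 11324 ± 702 TPM, S100a6 at 2176 ± 231 TPM, and S100a4, S100a13 and S100a10 at 40.2, 31.2 and 20.1 TPM (SD, n = 3). The 7 S100 genes made up 33.9 ± 1.71% of TPM.

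The weight of calprotectin depended on the unit. As a share of read counts, S100a8 and S100a9 held 5.55%, 5.40% and 5.12%. S100a9 still ranked first at 40689 ± 1348 CPM, but S100a8 came after Ngp at 12860 ± 2358 CPM. Ngp was second at 17562 ± 2930 CPM. The ratio of S100a9 to S100a8 was 1.59, 1.40 and 1.80 in TPM and 3.07, 2.66 and 4.01 in CPM. The effective length that the deposited values imply for S100a8 was 140, 145 and 101 bases, so its reads were divided by a small number that differed between libraries. Over 3192 long, well-covered transcripts, effective lengths in library 3 were shorter than in library 1 by a median of 45.2 bases and than in library 2 by 50.3 bases. With 1 common effective length per transcript, S100a8 was at 130078, 139985 and 105317 TPM, lowest in library 3, and its coefficient of variation (CV) went from 3.03% to 14.3%. The share of both genes was then 32.4%.

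Below these came 28 genes that complete the 30 most abundant. They were, in order of mean TPM, Ngp, Retnlg, Tmsb4x, S100a11, Lyz2, Ftl1, Camp, Lcn2, Hbb-bs, Actb, Hba-a1, Gapdh, Fth1, Ltf, Tyrobp, Ubb, Hba-a2, Actg1, Pkm, Aldoa, Eno1, Anxa1, Rps27, Arhgdib, Chil3, Pglyrp1, Msrb1 and Wfdc21. They span granule and antimicrobial proteins (Ngp, Lyz2, Camp, Lcn2, Ltf, Chil3, Pglyrp1), the secreted resistin-like protein Retnlg, actin and its partners, ferritin subunits, globins and glycolytic enzymes. Levels in this group ran from 24702 ± 4062 TPM for Ngp to 2459 ± 998 TPM for Wfdc21 (SD, n = 3). The order was only partly resolved: in 25 of the 30 the range over libraries overlapped that of the next gene, and gaps followed only S100a9, S100a8, Retnlg, S100a11 and Ltf. Of the 30, 24 were in the top 30 of every library, and 88 of the top 100 were in every library's top 100.

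**Figure D2:**
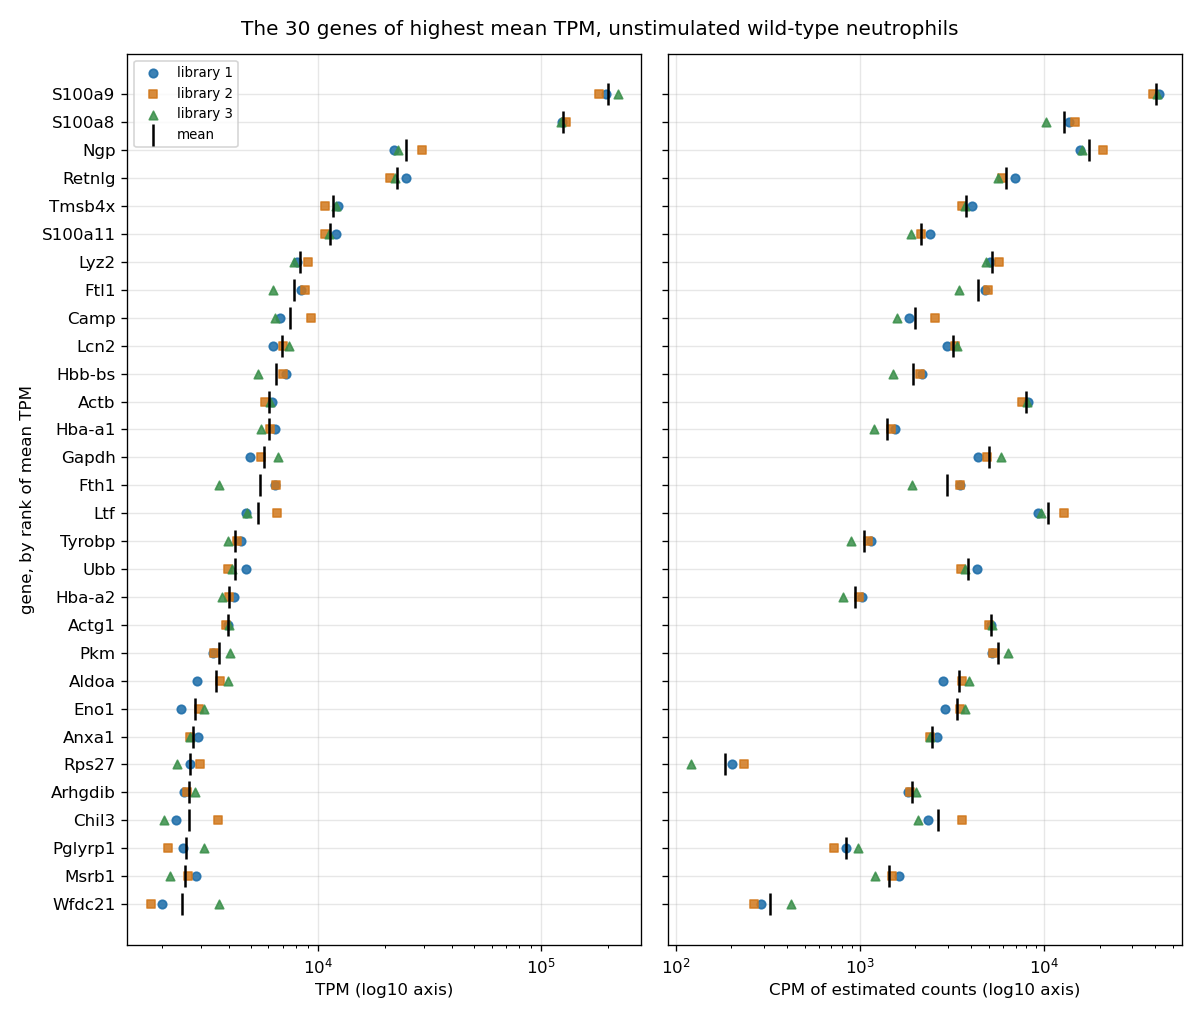
TPM (left) and CPM of estimated counts (right), both on log10 axes, for the 30 genes of highest mean TPM; each symbol is a library and the bar its mean. S100a9 and S100a8 stand apart at 199824 and 125595 TPM, while Rps27 and Wfdc21 lie far lower among their neighbours in CPM.

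The distribution was steep. The 10 most abundant genes held 42.6% of TPM, the 100 most abundant 60.5% and the 1043 genes at 100 TPM or more 83.6%. Only 28 genes were needed for 50% of mean TPM, and 30, 30 and 23 within libraries 1, 2 and 3. The median of genes at 1 TPM or more was 13.8 TPM. By read count the top 10 held 11.95% and 410 genes were needed for 50%. Of the top 30 genes by TPM, 17 were also in the top 30 by CPM. Median effective length was 691 bases in the first set and 1653 bases in the second, against 2502 bases for all genes at 1 TPM or more.

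Another 13 genes entered the top 30 only by read count, among them Lcp1, Itgam, Mmp9, Csf3r, Ctsd and Pygl. Myh9, the non-muscle myosin heavy chain, was at 6977 ± 763 CPM, rank 6, but at 1224 ± 109 TPM, rank 69 (SD, n = 3). The matrix glycoprotein gene Thbs1 ranked 16 by CPM and 91 by TPM, and Syne1, which encodes a giant nuclear envelope protein, ranked 29 and 346. Genes with very short transcripts moved the opposite way. Among those of the top 500, the largest shift was that of Ndufb1, a subunit of respiratory complex I, from rank 464 by TPM to 6024 by CPM on a mean of 173 reads. Ndufa3 went from 261 to 4532 and the ribosomal genes Rpl38 and Rps28 from 146 to 4176 and from 238 to 3554. In the extreme case, Cd99 was listed at 20.5, 0 and 36.6 TPM on 1, 0 and 1 reads, so its TPM carries no usable information.

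**Figure D3:**
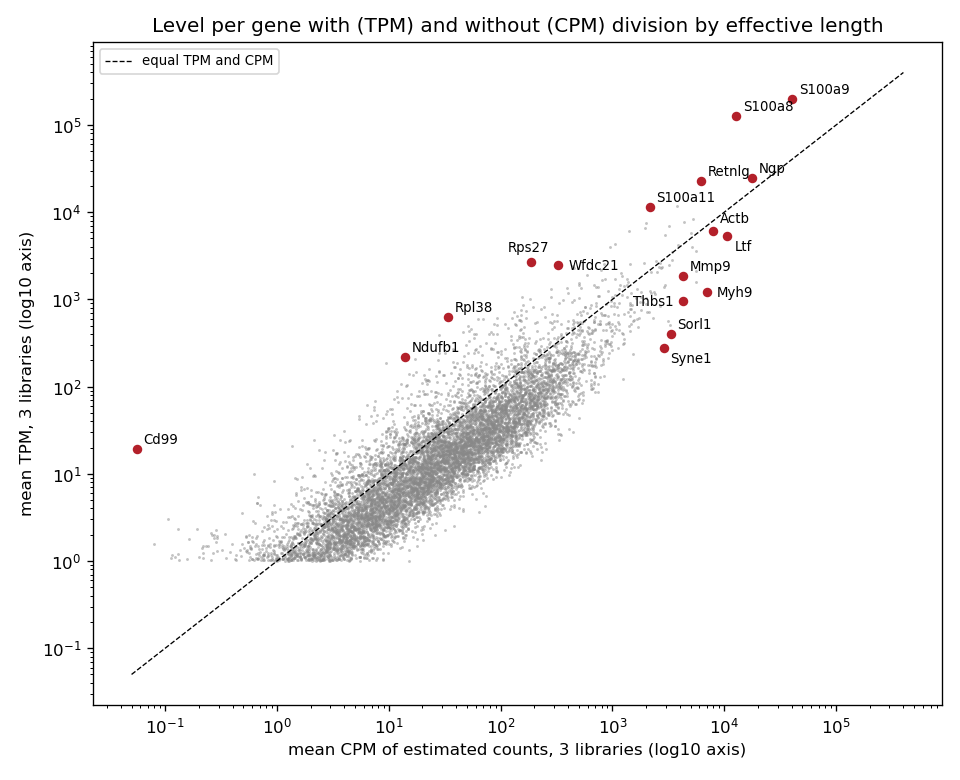
Mean TPM against mean CPM of estimated counts over the 3 libraries for genes at 1 TPM or more, both on log10 axes; the dashed line marks equal values. Genes above the line, such as S100a8 and Ndufb1, have short effective lengths, and Myh9 and Syne1 below it have long ones.

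Secondary granule genes were the most abundant granule class. All 15 were above 10 TPM, and the list held 4.92%, 6.24% and 5.17% of TPM, a mean of 5.44 ± 0.70% (SD, n = 3). After Ngp, a cathelicidin-like granule protein, came Camp, the cathelicidin, at 6759, 9284 and 6436 TPM. Lcn2, which binds bacterial siderophores, was at 6303, 6969 and 7405 TPM. Ltf, the iron-binding lactoferrin, was at 4739, 6560 and 4812 TPM, and the chitinase-like Chil3 at 2318, 3551 and 2044 TPM. Ngp, Camp, Ltf and Chil3 were all highest in library 2, whereas Lcn2 and Pglyrp1, a peptidoglycan-binding protein, were highest in library 3. Further down were Mmp8, the neutrophil collagenase, at 1258 ± 180 TPM, and Cd177 at 1024 ± 45.5 TPM. Olfm4 was at 224 TPM, Fcnb at 79.0 and Orm1 at 21.7 TPM.

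Primary granule genes held 0.927 ± 0.073% of TPM (SD, n = 3), and 1 gene made most of it. Lyz2, the lysozyme found in all granule classes and in macrophages, was at 8029, 9005 and 7833 TPM. Cd63, a granule membrane tetraspanin, followed at 546 ± 122 TPM and Serpinb1a, an inhibitor of the granule proteases, at 211 ± 7.33 TPM. The classical azurophil genes were low: Mpo, myeloperoxidase, was at 51.4, 57.6 and 66.4 TPM and Elane, neutrophil elastase, at 40.6, 48.1 and 52.2 TPM. Prtn3 and Ctsg, the other serine proteases, averaged 41.9 and 25.2 TPM, and Bpi was at 0.070 TPM. The library order of Mpo and Elane, lowest in library 1 and highest in library 3, was not that of Ngp and Camp.

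The tertiary granule list, which also counts the cathepsin genes Ctsb, Ctsd, Ctsh and Ctsz, held 0.599% of TPM. Its share is therefore not that of gelatinase granule genes alone. It was led by the lysosomal protease gene Ctsd at 2451 ± 416 TPM and by Mmp9, gelatinase B, at 1841 ± 311 TPM (SD, n = 3). Mmp9 was at 1960, 1489 and 2075 TPM, lowest in library 2, where Ngp and Camp were highest. Adam8 was at 879 TPM and Mmp25, a membrane-bound metalloproteinase, at 145 TPM. Among secretory vesicle and surface genes, Itgam and Itgb2, the CD11b and CD18 chains of the integrin Mac-1, were at 1589 ± 77.3 and 1385 ± 80.5 TPM. Alpl and Anpep, which are used as secretory vesicle markers in other settings, were at 0.24 and 0.42 TPM, near the floor.

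**Figure D4:**
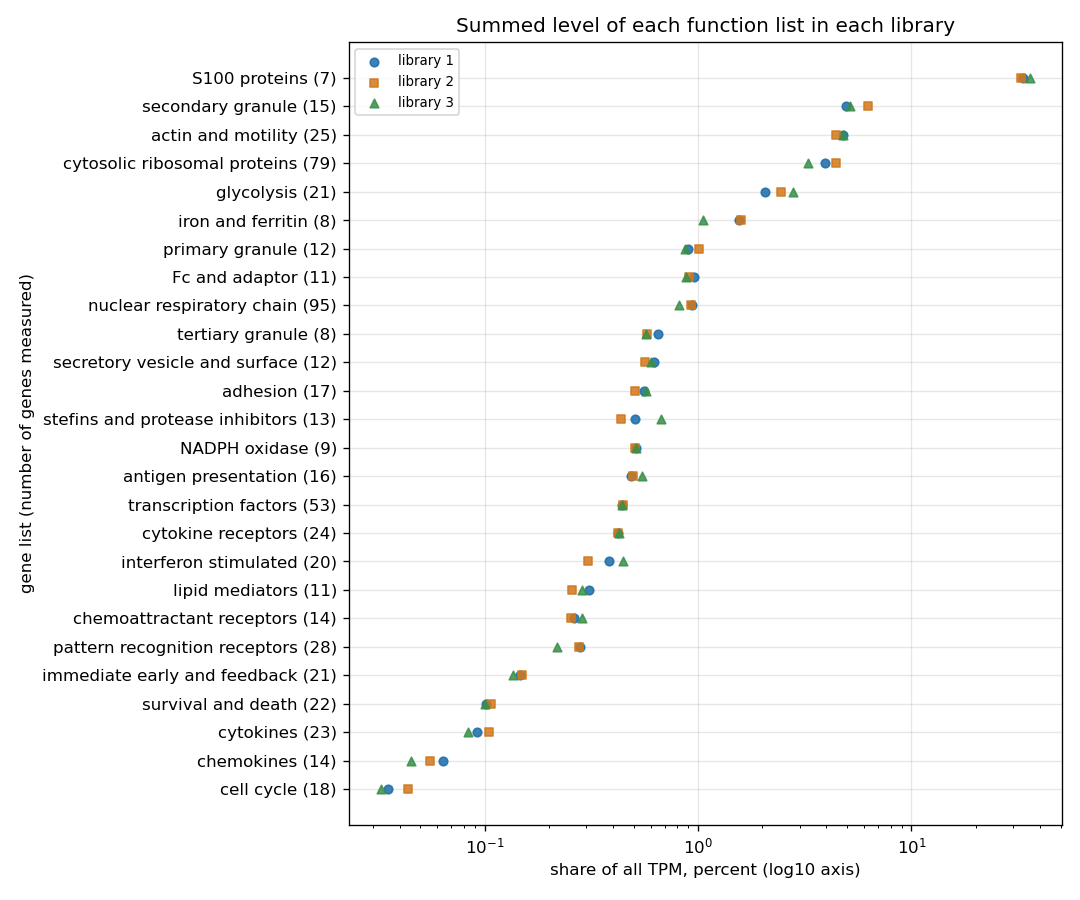
Share of all TPM (percent, log10 axis) held by each function list in each library, with the number of genes measured in brackets. S100 proteins are at 32.5 to 35.8%, and the next list, secondary granule, is at 4.92 to 6.24%.

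Protease inhibitors were dominated by short secreted proteins. Wfdc21 was at 1994, 1778 and 3604 TPM, highest in library 3 and apart from the other two libraries, and Slpi, the secretory leukocyte peptidase inhibitor, at 1132, 819 and 1150 TPM. The stefins, cytosolic inhibitors of cathepsins, included Stfa2l1 at 592 ± 117 TPM, Cstb at 558 ± 145 and Stfa1 at 148 ± 63.2 TPM (SD, n = 3). Stefin genes form a cluster of near copies, so how reads were divided between Stfa1, Stfa2, Stfa3 and Stfa2l1 is uncertain. Implied effective lengths for Wfdc21 were 186, 191 and 144 bases, and its CPM was also highest in library 3, at 423. With 1 common effective length per transcript it was at 2069, 1871 and 3241 TPM, still highest there, with a CV of 30.9% in place of 40.6%.

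The NADPH oxidase, which makes superoxide for microbial killing, was represented by genes of its membrane and cytosolic subunits. The membrane subunit genes Cyba and Cybb were at 1337 ± 72.9 and 222 ± 22.9 TPM. The cytosolic subunit genes Ncf1 and Ncf4 were at 1202 ± 132 and 546 ± 19.3 TPM, and the GTPase gene Rac2 at 650 ± 51.3 TPM (SD, n = 3). Rac2 exceeded Rac1, at 167 TPM, in every library. The list's summed level differed little between libraries, at 5151, 5066 and 5127 TPM.

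Chemoattractant receptors were led by Cxcr2, which binds CXC chemokines and draws neutrophils out of the marrow, at 711 ± 154 TPM (SD, n = 3). Cxcr4, which retains them there, was at 408, 447 and 452 TPM. Cxcr2 exceeded Cxcr4 in every library. The formyl peptide receptors Fpr1 and Fpr2 were at 326 and 241 TPM, the leukotriene B4 receptor Ltb4r1 at 251, Ccr1 at 239 and the complement receptor C5ar1 at 215 TPM. Those 5 genes lay close together, and several of their ranges overlapped. Cxcr1 was at 13.4 TPM and C3ar1 at 0.58 TPM.

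Csf3r, the receptor for the granulocyte growth factor G-CSF, was the leading cytokine receptor at 1714, 1748 and 1777 TPM, with a CV of 1.81%. Il1r2, the decoy receptor for interleukin-1, was at 475 ± 65.9 TPM, Il17ra at 290 ± 15.9, Csf2ra, for GM-CSF, at 266 ± 12.6 and Tnfrsf1a at 248 ± 4.70 TPM (SD, n = 3). The signalling adaptors Tyrobp and Fcer1g, which pair with activating receptors, were at 4265 ± 301 and 1920 ± 39.1 TPM. Of the Fc receptors, Fcgr3 was at 1313 TPM, Fcgr4 at 163, Fcgr2b at 61.5 and the high-affinity Fcgr1 at 0.59 TPM. Fcgr4 and Fcgr3 lie among related genes, so their reads can be shared.

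Among pattern recognition receptors the C-type lectin gene Clec4d was highest at 955, 935 and 601 TPM, lowest in library 3. Trem3 was at 338 TPM, Clec7a, the beta-glucan receptor, at 200, Trem1 at 181 and Clec4e at 176 TPM. Toll-like receptors were lower. Tlr13, a sensor of bacterial ribosomal RNA, was at 118 ± 5.23 TPM and Tlr2 at 116 ± 21.8 TPM, with overlapping ranges, against 9.77 ± 2.58 TPM for Tlr4 (SD, n = 3). Tlr9, the receptor of the CpG-B used elsewhere in the series, was at 1.35 TPM, and its chaperone Unc93b1 and the adaptor Myd88 were at 97.0 and 81.8 TPM. Of the 19 receptor list members at 10 TPM or more, 15 were lowest in library 3, where 50.2% of all 5422 genes at that level were lowest.

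Il1b had the highest mean TPM of the 23 cytokine genes listed. It was at 286, 304 and 168 TPM, lowest in library 3, and its antagonist Il1rn at 129, 151 and 100 TPM, in the same order. Il16 was at 185 ± 4.91 TPM, Il15 at 78.4 ± 18.9 and Tnfsf14 at 71.8 ± 5.57 TPM (SD, n = 3). Tnf was at 17.0, 18.2 and 19.8 TPM. Il6, Il10, Il12b, Csf3 and Ifnb1 were each below 1 TPM, and Ifng had no count in any library. The chemokine list was led by Ccl6 at 474, 419 and 341 TPM, followed by Ccl3 at 41.5, Cxcl2 at 34.2 and Ccl4 at 31.3 TPM. Cxcl1 and Cxcl10 were at 1.23 and 1.17 TPM.

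Of the 53 transcription factor genes listed, Mxd1 and Spi1 had the highest levels. Mxd1, a MYC antagonist that rises as granulocytes mature, was at 480 ± 21.9 TPM and Spi1, which encodes PU.1, at 480 ± 21.7 TPM (SD, n = 3). Their ranges overlapped. Max, the shared partner of MYC and MXD1, was at 398 TPM, Nfe2 at 334 and Atf4 at 232 TPM. Cebpe, which drives secondary granule genes, was at 84.3, 118 and 107 TPM, and Gfi1 at 4.29, 6.47 and 5.13 TPM, both highest in library 2. Myc was at 0.73 TPM. Immediate early genes were present at moderate levels: Fos was at 174, 149 and 109 TPM, Junb at 87.0, 109 and 119 TPM and Egr1 at 2.60 TPM. Mcl1, a survival factor of neutrophils, was at 289, 375 and 346 TPM, while Bcl2 was at 0.22 TPM.

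Rab27a, the gene deleted elsewhere in the series, was at 107, 118 and 146 TPM, rank 845, with 81.0% of its TPM on 1 curated transcript.

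Most genes were steady between libraries. Over the 5422 genes at 10 TPM or more, the median CV of TPM was 9.72%, with quartiles of 5.85% and 14.9%. Counting error alone would give a median of 3.43%. A ratio of highest to lowest library of 2 or more was seen for 104 of these genes, 1.92%. The lowest CVs, 0.217% to 0.347%, were those of Mdh1, Aamp, Inpp5d, Lonp2 and Cs. Counting error alone would give these genes 1.23% to 5.09%, so the low values do not single them out as steady. Mdh1 and Cs encode malate dehydrogenase and citrate synthase of central metabolism, and Mdh1 was at 23.2, 23.3 and 23.2 TPM. Short genes varied most: the median CV was 14.6% for 130 genes with effective lengths under 300 bases and 9.28% for 4602 genes of 1000 bases or more.

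The most variable genes followed several orders of the libraries. Slc2a1, the glucose transporter GLUT1, was at 36.9, 145 and 187 TPM, lowest in library 1. Fosl1, an AP-1 subunit, was at 8.58, 23 and 40.8 TPM and Nab2, an EGR cofactor, at 5.91, 19.3 and 28 TPM, both again lowest in library 1 and highest in library 3. Others were highest in library 3 alone: Gm12854 at 6.86, 6 and 30 TPM, Tnfrsf18 at 7.68, 6.76 and 21.6 TPM and Selenbp1 at 27.95, 39.1 and 88.3 TPM. Wfdc17, Stfa2 and Ifit3 were lowest in library 2, with Wfdc17 at 111, 18.6 and 97.2 TPM.

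**Figure D5:**
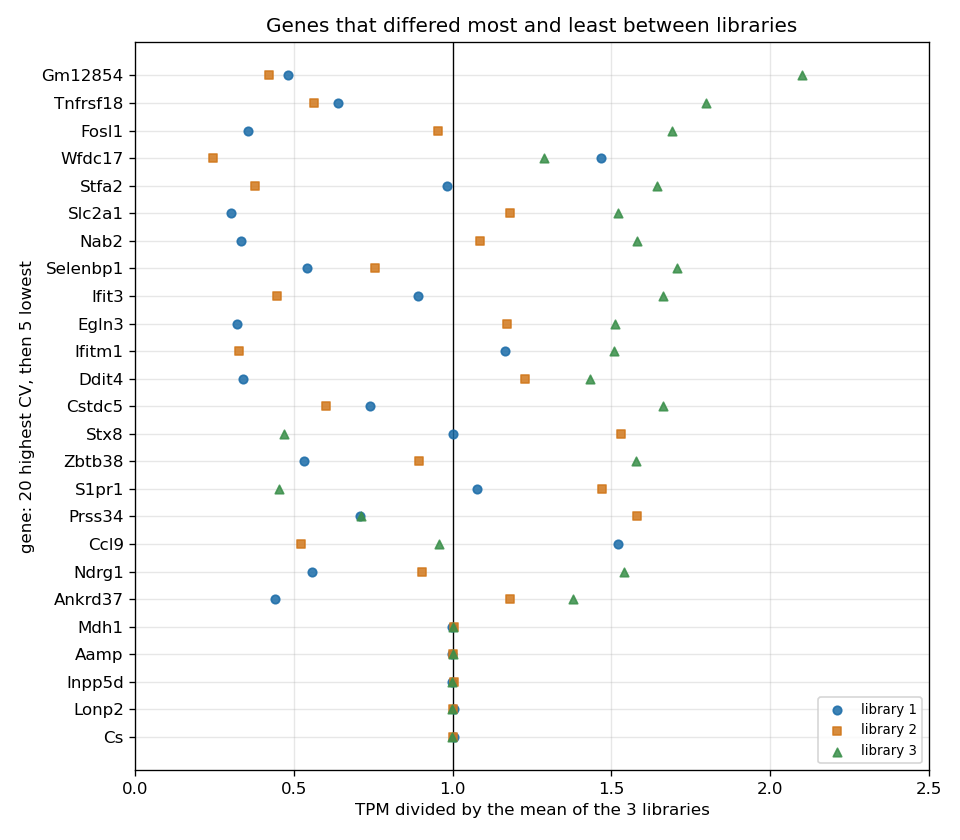
TPM of each library divided by the mean of the 3 (linear axis) for the 20 genes of highest CV with at least 30 reads in every library and the 5 of lowest CV, among genes at 10 TPM or more. Slc2a1, Egln3, Ddit4 and Ankrd37 are lowest in library 1, and Ifitm1 and Ifit3 in library 2. The 5 genes of lowest CV sit close to 1.

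Whole gene groups differed between libraries in 1 direction. Of 18 glycolysis genes at 10 TPM or more, 17 were lowest in library 1 and 17 highest in library 3, against 24.0% and 28.1% of all 5422 genes. The exceptions were Hk3, lowest in library 2, and Ldha, highest in library 2. The list summed to 20573, 24495 and 27879 TPM. Gapdh was at 4937, 5554 and 6611 TPM, Pgam1 at 555, 900 and 1046 TPM and the hexokinase gene Hk2 at 60.9, 127 and 167 TPM. Genes named after their values were seen lay in the same order: Egln3, a HIF prolyl hydroxylase, was at 58.5, 214 and 276 TPM, Ddit4 at 18.1, 65.5 and 76.3 TPM, Ndrg1 at 52.3, 84.7 and 144 TPM and Ankrd37 at 18.2, 48.8 and 57.1 TPM. Hif1a mRNA was at 67.7, 71.4 and 53.0 TPM, in a different order. What lay behind these orders was not tested.

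Interferon-stimulated genes took another order. Of 14 at 10 TPM or more, 13 were lowest in library 2 and 13 highest in library 3, against 25.8% and 28.1% of all genes. The exceptions were Ifitm6, lowest in library 1, and Oasl1, highest there. Ifitm1, an antiviral membrane protein, was at 372, 105 and 482 TPM, Isg15 at 72.2, 32.6 and 77.6 TPM and Rsad2 at 42.0, 23.3 and 48.4 TPM. Ifitm6, the most abundant of the list, was nearly level at 1276, 1299 and 1337 TPM. Libraries 1 and 3 were close for Isg15 and Rsad2. Ifnb1 was at 0, 0 and 0.21 TPM. The list summed to 3837, 3068 and 4439 TPM.

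Cell cycle and ribosomal protein genes were mostly highest in library 2. All 13 cell cycle genes at 10 TPM or more were highest there, against 40.6% of all genes, though their levels were low. Mki67 was at 58.8, 66.5 and 62.8 TPM, Pcna at 72.0, 87.2 and 49.1 TPM and Top2a at 32.4, 42.0 and 40.0 TPM. Of 79 cytosolic ribosomal protein genes, all at 10 TPM or more, 74 were highest in library 2 and 78 lowest in library 3, against 40.6% and 50.2% of all genes. By CPM, 75 were highest in library 2 and 79 lowest in library 3, against 37.2% and 47.0% of all genes. The list summed to 39282, 44244 and 32823 TPM, or 3.88% of TPM. Library 2 also had the highest marker sums of immature neutrophils, basophils and mast cells, stem and progenitor cells, B lineage, T and NK cells, eosinophils and dendritic cells, and library 3 had the shorter effective lengths. The part of either in these group differences was not tested. The stem and progenitor list shares Kit and Gata2 with the basophil and mast cell list and Flt3 with the dendritic cell list. Apart from that of immature neutrophils, the marker sums named here were low. Genes within a group are not independent of each other.

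Both ferritin genes were lowest in library 3, as were 50.2% of all 5422 genes at 10 TPM or more. Fth1, the heavy chain that oxidises iron for storage, was at 6438, 6456 and 3615 TPM, and Ftl1, the light chain, at 8417, 8752 and 6264 TPM. With 1 common effective length per transcript, Fth1 remained lowest there, at 6356, 6340 and 3745 TPM. Hmox1, heme oxygenase, ran the other way at 423, 508 and 531 TPM.

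At the transcript level, the 10 most abundant transcripts were all curated RefSeq entries. S100a9 was divided between 2 curated transcripts, which held 83.4% and 16.6% of its TPM. Of the 100 most abundant genes, 53 had 1 transcript in the files and 47 had 2 or more. In 23 of these 47 the leading transcript held 90% or more, and in 3 it held under 50%: Csf3r at 31.3%, Lsp1 at 35.6% and Cap1 at 47.4%. For Csf3r and Lsp1 the leading transcript was a predicted one. Lgals3 and Thbs1 were each split nearly evenly, with leading shares of 51.0% and 55.1%. Predicted transcripts held 5.81 to 6.10% of TPM and 15.2 to 15.4% of counts, and how reads were divided among similar transcripts is an estimate. The files hold coding transcripts only, so noncoding and mitochondrially encoded RNA was not analysed here.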

How the data were processed

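The 3 unstimulated wild-type libraries were used, and the files of the 9 other libraries were not. The authors deposited, per the file headers, an estimated count, a TPM and an FPKM for each RefSeq transcript. The estimated counts are not whole numbers in 47.2 to 48.5% of all transcripts. TPM, also from the authors, sums to 1000000 in each library. FPKM, deposited by the authors beside it, was used only for effective lengths. Bowtie2, RSEM 1.2.28 and the build GRCm39 are named, per the submitters' processing notes, without roles or order. No source used here gives strandedness, filters or trimming, so reads of overlapping or antisense genes cannot be told apart.

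Counts and TPM of 54716 transcripts (24908 curated, 29808 predicted) were summed into 15986 NCBI genes with Python 3.11.15, pandas 2.3.3, numpy 2.4.6 and scipy 1.17.1, and plotted with matplotlib 3.10.9. Symbols came from RefSeq of GRCm38.p6, an earlier build, and 103 genes without a match held at most 0.0374% of TPM. CPM is the estimated count scaled to a sum of 1000000. The effective length of a transcript is its count divided by its FPKM and the library total. Simulated data were built with the same formula, so the return of their lengths only checked the code. Whether the deposited FPKM follow that formula was not tested. Promoter sequences are from the RefSeq table of GRCm38.p6. Floors cover counting error only, and no source used here names molecular identifiers.

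No test was made beyond a check for duplicates among the 3 libraries, and no groups were compared. Named genes were the 30 of highest mean TPM, up to 5 members of each of the 26 function and 12 marker lists plus members with no count, the 10 highest and 5 lowest CV at 10 TPM or more, the 10 with the largest rank shift between units among the top 500, the leading and most divided transcripts, and Rab27a. A few genes that this rule names are not reported here. Other genes were named after their values were seen, among them those listed as lowest in a list and the variable genes with at least 30 reads in every library. The members and lists were chosen with earlier results of these data known. Of the listed genes, 3 stefin-like genes, Mx1, Mx2 and a further noncoding list had no entry in the tables used. Alternatives were CPM in place of TPM, curated transcripts only, the median, other thresholds and pseudocounts, leaving out each library and, chosen after seeing the data, a common effective length and rescaling without S100a8 and S100a9.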

Additional observations from a re-analysis of the deposited data

How the results depend on the processing

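The choices that moved values most were the unit and the removal of calprotectin. In CPM the 10 most abundant genes held 11.95% in place of 42.6%, 410 genes in place of 28 made up 50%, S100 proteins held 5.65% in place of 33.9% and secondary granule genes 4.40% in place of 5.44%. After rescaling without S100a8 and S100a9, an alternative chosen after seeing the data, the top 10 held 16.8%, 186 genes made up 50% and secondary granule genes held 8.06%. With curated transcripts only, the top 10 held 45.3% and S100 proteins 36.1%. Counting any gene with a read gave 14374 genes in place of 9382 at 1 TPM or more. The lowest Spearman rho between libraries was 0.981 over all genes with a count, and the lowest Pearson r on log2(TPM + pseudocount) went from 0.986 to 0.981 with a pseudocount of 0.1 in place of 1. Of 205 alternative values over 27 results, 156 stayed within 1 SD of the libraries (counts of genes within 1.5 times) and 49 moved further. The CPM alternative moved 20 of 25, rescaling 22 of 24, curated transcripts 4 of 25 and a common effective length none of 25. Rescaling raises the shares and sums of all remaining genes by a similar factor, so most of its moves were fixed in advance. The median of 3 libraries and a mean of 2 of them cannot lie 1 SD from the mean of 3, so for shares and sums those settings, with 100 of the 205 values in all, could not count as moved and say nothing about stability. The number of libraries (3) limits every spread given, depth limits genes with few reads, and TPM of transcripts near the fragment length rests on an estimated length. No paired analysis was possible because a single group has nothing to pair.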

Other observations

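Several gene groups were not described above. Lipid mediator genes were led by Alox5ap, which presents arachidonic acid to 5-lipoxygenase, at 2214, 1709 and 2096 TPM. Alox5, the enzyme itself, was at 254 ± 5.94 TPM, and Lta4h, which makes leukotriene B4, at 189, 309 and 192 TPM, highest in library 2 (SD, n = 3). The cyclooxygenase genes were far lower, with Ptgs1 at 14.6 TPM and Ptgs2 at 6.60 TPM, and Alox15 was at 0.38 TPM. Genes of MHC class I presentation were abundant, with H2-D1 at 2381 ± 10.96 TPM and B2m at 1223, 1408 and 1764 TPM, highest in library 3. MHC class II genes were low, with Cd74 at 68.2 TPM and H2-Aa at 24.6 TPM. The class I genes are near copies of each other, so the division of reads among them is uncertain.

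Actin and motility genes held 4.67% of TPM and were among the steadiest abundant groups. Tmsb4x, which binds monomeric actin, was at 11698 ± 808 TPM, Actb at 6045 ± 216 and Actg1 at 3946 ± 49.96 TPM (SD, n = 3). Adhesion genes beyond the Mac-1 chains included Selplg, the P-selectin ligand, at 525 ± 66.9 TPM (SD, n = 3). S1pr1, a receptor for sphingosine-1-phosphate, was at 10.98, 15.01 and 4.63 TPM, lowest in library 3, and Ccl9 at 27.6, 9.48 and 17.4 TPM.

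The nuclear-encoded respiratory chain list held 0.894% of TPM over 95 genes, a summed level of 8943 TPM against 24316 TPM for 21 glycolysis genes. By CPM the respiratory chain list held 0.326% of counts and the glycolysis list 3.15%, so the size of the contrast depended on the unit. Of the 78 respiratory chain genes at 10 TPM or more, 58 were lowest in library 3 by TPM and 71 by CPM. The shares of all genes were 50.2% by TPM and 47.0% by CPM. Library 3 had the shorter effective lengths, and their part in this was not tested.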
